A study of Mus musculus with 9 samples.

Results

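Genes for nuclear-encoded subunits of cytochrome c oxidase were followed across the arrays, 10 in all, namely Cox6a2, Cox6a1, Cox7a1, Cox7a2, Cox7a2l, Cox8a, Cox4i1, Cox4i2, Cox6b1 and Cox6b2. Members were found by gene name in the scanner files. All were represented, among 21129 genes with a probe, by 11 of the 41174 probes on the array, with 2 probes for Cox7a2 and 1 for each other gene. Cox6a2, Cox7a1, Cox4i2 and Cox6b2 are the 4 tissue-restricted isoforms, and the other 6 are widely expressed forms or relatives. The list was drawn up around Cox6a2, whose signal in these arrays differed between EBF1ΔC and EBF1wt. For that reason Cox6a2 is described without a test throughout, and the values of every member in EBF1ΔC against EBF1wt are a description. The other members were tested against Mock.

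The cells were mouse pro-B cells transformed with the Abelson virus, on a C57Bl/6 background, and every group carried the conditional allele Ebf1fl/fl and the tamoxifen-inducible recombinase RERTCre. Ebf1 encodes the factor that commits progenitors to become B cells. EBF1ΔC cells (3 arrays) received the retrovirus pmys-EBF1ΔC-IRES-GFP, which encodes EBF1 without its C-terminal domain. EBF1wt cells (3 arrays) received pmys-EBF1wt-IRES-GFP. Both groups got 2 µM 4-hydroxytamoxifen 24 h after the virus, went through a sort for GFP-positive cells 5 days on, and were used after more than 2 further weeks of culture. Mock cells (3 arrays) were mock-transduced, given the same 2 µM 4-hydroxytamoxifen and harvested 4 days later, before cell death was seen. Mock therefore differs from the other groups in virus, sort and time as well as in EBF1. Whether the line was 1 clone, and whether the replicates came from separate cultures, is not stated in the labels, so the p-values cover just the spread between samples, which may be technical. Tamoxifen is missing from the source name of EBF1wt replicate 3 but present in its description, and that array was kept in its group.

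Total RNA was read in 1 colour on 9 Agilent arrays. The share of spots well above background was 51.3% to 53.3% in EBF1ΔC, 50.5% to 51.0% in EBF1wt and 54.1% to 56.7% in Mock. The number of arrays, 3 per group, limits the precision. EBF1wt replicate 2 lay apart, at 45.9 on principal component 2 against 12.8 and 15.2 for the other EBF1wt arrays. Mock arrays shared their 2 slides and their scan day with no other group, so slide, scan day and group cannot be told apart against Mock. Slides 4 and 5 each held 1 EBF1ΔC and 1 EBF1wt array. The probe for Ebf1 mRNA gave log2 signals of 3.81, 3.74 and 3.85 in EBF1ΔC, 3.17, 2.87 and 3.16 in EBF1wt and 1.73, 1.47 and 1.17 in Mock. The other Ebf1 probe, made to a cDNA clone, was well above background on the 3 Mock arrays and on 0 arrays of the other groups. Where these probes lie relative to the deleted part of the gene or the retroviral insert is not given in the sources used here, so they check neither deletion nor transgene level.

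Cytochrome c oxidase, complex IV of the respiratory chain, passes electrons from cytochrome c to oxygen and pumps protons across the inner mitochondrial membrane. Its catalytic core is encoded by mitochondrial DNA, and the surrounding nuclear-encoded subunits tune its activity and stability. Several of these come as a pair, with a widely expressed form and a form restricted to certain tissues. COX6A2 and COX7A1 are the forms of heart and skeletal muscle, where COX6A1 and COX7A2 are the widely expressed partners. COX4I2 is known from lung and from cells that sense oxygen, and COX6B2 from testis. Cox6a2 transcript is also known from mouse plasmacytoid dendritic cells. COX7A2L is a relative of COX7A2 that helps join complex IV to complex III in supercomplexes, and C57BL/6 mice carry a short form of it.

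The probes of a pair are shown first because the comparison of isoforms rests on each probe reading its own gene. Each line gives the first 30 bases of a 60-base probe from the scanner files, 5′ to 3′.
Cox6a2: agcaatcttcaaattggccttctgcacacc
Cox6a1: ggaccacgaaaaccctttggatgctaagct
Cox7a1: acaacgtcctgtacagactgaccatgacgc
Cox7a2: aactgagctcttctttggggatcaatattt
Cox6b2: ggaactttcccgggcaaaatatgaccttgc
Cox6b1: aggagtcaggatggctgaagacatcaagac
The longest run of bases shared by the full probes was 4 for Cox6a2 and Cox6a1, 6 for Cox7a1 and Cox7a2, and 6 for Cox6b2 and Cox6b1. The 2 Cox7a2 probes lie 12 bases apart and share a run of 48 bases, so they are not independent readings.

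In the positions of the files (mm9), the Cox6a2 probe lies on the minus strand of chr7:135349160-135349219. The Cox6a1 probe lies on the minus strand of chr5:115795726-115795785. The Cox7a1 probe lies on the plus strand within chr7:30970337-30970948. The chosen Cox7a2 probe lies on the minus strand of chr9:79603227-79603286. The Cox6b2 probe lies on the minus strand of chr7:4703488-4703547, and the Cox6b1 probe on the minus strand within chr7:31409575-31411071. The positions of the Cox7a1 and Cox6b1 probes span 612 and 1497 bases for 60 bases of probe, as for a probe that crosses an exon junction. No annotation of this build was used here to place the other probes in an exon or UTR.

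Promoters were searched because EBF1 is the factor that differs between the groups. RefSeq (GRCm38.p6) held the promoters of 7 members, and none of Cox6a2, Cox4i1 or Cox4i2. Within the 250 bases before the start, both strands were searched for the EBF core CCCNNGGG, for the longer EBF palindrome (that core with T before and A after it, so every palindrome also counts as a core), for the E-box CANNTG and for the MEF2 motif. Of 32851 promoters, 0.779% held the palindrome, 11.8% the core, 66.2% an E-box and 2.92% the MEF2 motif. Among the 7 members, only Cox6a1 held the EBF core, beginning 136 bases before the start, and none held the palindrome or the MEF2 motif. Cox7a1 held 1 E-box, beginning 124 bases before the start. Cox7a2, Cox7a2l, Cox8a and Cox6b1 also held E-boxes, and Cox6b2 held none of the 4 motifs. The promoters of Cox7a1, the member that rose most against Mock, and of Cox6a1 are given with the motif in capitals, an E-box in Cox7a1 (chr7:30183921-30184170, plus strand) and the EBF core in Cox6a1 (chr5:115348959-115349208, minus strand).
Cox7a1: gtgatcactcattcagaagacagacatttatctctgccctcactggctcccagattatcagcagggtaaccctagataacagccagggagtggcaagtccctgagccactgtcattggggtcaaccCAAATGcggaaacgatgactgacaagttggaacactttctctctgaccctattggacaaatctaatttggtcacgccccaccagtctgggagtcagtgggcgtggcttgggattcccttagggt
Cox6a1: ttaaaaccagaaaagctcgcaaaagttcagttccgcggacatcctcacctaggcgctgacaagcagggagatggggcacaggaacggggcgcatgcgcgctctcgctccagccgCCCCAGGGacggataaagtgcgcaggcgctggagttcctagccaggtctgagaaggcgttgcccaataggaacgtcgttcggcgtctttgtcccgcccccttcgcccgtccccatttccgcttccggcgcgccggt
A match is a run of letters and was not tested as a binding site.

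Cox6a2 was high in EBF1ΔC and Mock cells and low in EBF1wt cells. The processed intensity of its probe was 6290, 5640 and 6380 in EBF1ΔC, 418, 436 and 528 in EBF1wt, and 7850, 7000 and 5720 in Mock. All 9 spots were well above background. On the log2 scale, with each array's 75th percentile set to 0 as in all values that follow, Cox6a2 read 3.76, 3.77 and 3.67 in EBF1ΔC, -0.24, -0.12 and 0.06 in EBF1wt, and 4.03, 3.98 and 3.90 in Mock. The EBF1wt arrays lay apart from all others, and the EBF1ΔC arrays lay just under the Mock arrays without overlap. In this bulk RNA, fewer cells with the transcript and less transcript per cell cannot be told apart.

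The group means of Cox6a2 were 3.73 ± 0.05 in EBF1ΔC, -0.10 ± 0.15 in EBF1wt and 3.97 ± 0.07 in Mock (SD, n = 3 each). EBF1ΔC exceeded EBF1wt by 3.83 log2, or 14.2-fold. EBF1wt lay 4.07 log2, or 16.8-fold, under Mock, a difference of -4.07. EBF1ΔC differed from Mock by -0.24 log2, which turned to 0.31 when arrays were scaled to their median. The difference between EBF1ΔC and EBF1wt was 3.79 within slide 4 and 3.71 within slide 5. By this difference Cox6a2 ranked 1 among called genes detected on all 9 arrays, which is how it came to be chosen.

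**Figure D1:**
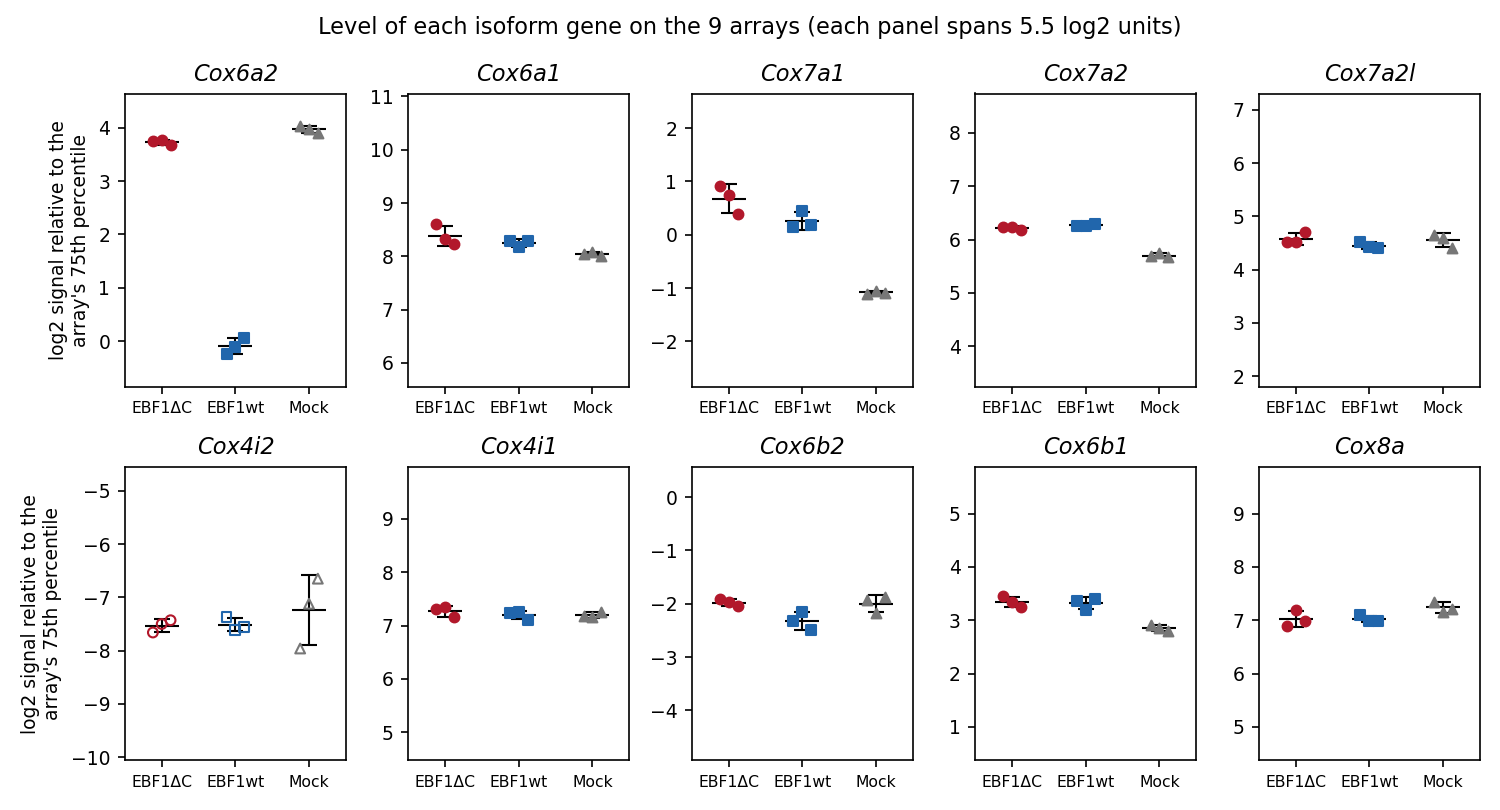
Each panel plots the log2 signal of a gene relative to the 75th percentile of the array (vertical axis, 5.5 log2 units in every panel) on the 3 EBF1ΔC, 3 EBF1wt and 3 Mock arrays, with bars for the mean and SD and open symbols where no array of the group was well above background. Cox6a2 is low in EBF1wt alone (-0.24 to 0.06), Cox7a1 is lowest in Mock (-1.11 to -1.05), and the Cox4i2 symbols are all open.

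Cox6a1, the widely expressed partner of Cox6a2, had a narrow range. Its log2 signal was 8.60, 8.32 and 8.23 in EBF1ΔC, 8.29, 8.17 and 8.29 in EBF1wt, and 8.04, 8.08 and 8.01 in Mock. The EBF1ΔC and EBF1wt arrays overlapped, and both groups lay above the Mock arrays. EBF1ΔC exceeded EBF1wt by 0.13 log2, which became -0.02 with median scaling. Against Mock, Cox6a1 rose by 0.34 log2 in EBF1ΔC (SE 0.10, adjusted p = 0.0161), and the difference in EBF1wt was 0.21 (SE 0.10, adjusted p = 0.0972, limma with Benjamini-Hochberg adjustment). With the authors' own values the EBF1ΔC difference was 0.24 and no longer passed (adjusted p = 0.0897).

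Cox7a1, the other muscle form, was higher in both EBF1 groups than in Mock, the reverse of Cox6a2 in EBF1wt cells. Its intensity was 874, 691 and 654 in EBF1ΔC, 542, 645 and 576 in EBF1wt, and 223, 214 and 181 in Mock. On the log2 scale these were 0.91, 0.74 and 0.38 in EBF1ΔC, 0.14, 0.45 and 0.18 in EBF1wt, and -1.11, -1.05 and -1.09 in Mock. No array of either EBF1 group came near the Mock arrays, while EBF1ΔC replicate 3 lay under EBF1wt replicate 2. Cox7a1 rose against Mock by 1.76 log2, or 3.39-fold, in EBF1ΔC (SE 0.14, adjusted p = 1.89e-05). It rose by 1.34 log2, or 2.52-fold, in EBF1wt (SE 0.14, adjusted p = 7.42e-05). EBF1ΔC minus EBF1wt was 0.42 log2, with -0.06 within slide 4 and 0.73 within slide 5. Under the 20 alternative settings the rise stayed called, at 1.46 to 2.31 in EBF1ΔC and 1.08 to 2.04 in EBF1wt.

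Cox7a2, the widely expressed partner of Cox7a1, was also higher than Mock, but by less. Its log2 signal was 6.23, 6.24 and 6.18 in EBF1ΔC, 6.25, 6.26 and 6.30 in EBF1wt, and 5.69, 5.74 and 5.68 in Mock. The EBF1ΔC and EBF1wt arrays lay close together, and all were above Mock. Cox7a2 rose by 0.52 in EBF1ΔC (SE 0.06, adjusted p = 0.000179) and by 0.57 in EBF1wt (SE 0.06, adjusted p = 1e-04). Its other probe gave 0.64 and 0.68. The rise in EBF1ΔC did not pass with the authors' values (0.10, adjusted p = 0.372) or with normexp and quantile normalization (0.08, adjusted p = 0.48), and the rise in EBF1wt was 0.20 with the latter setting (adjusted p = 0.0772).

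Cox7a2l, the supercomplex factor, did not pass against Mock in either group on the 75th percentile scale. Its log2 signal was 4.52, 4.51 and 4.70 in EBF1ΔC, 4.52, 4.42 and 4.41 in EBF1wt, and 4.65, 4.59 and 4.41 in Mock. The 3 groups overlapped. EBF1ΔC minus Mock was 0.03 (adjusted p = 0.818) and EBF1wt minus Mock was -0.10 (adjusted p = 0.368). The direction depended on scaling. In EBF1wt it passed in opposite directions, at 0.61 with median scaling (adjusted p = 0.00557) and -0.35 with quantile normalization (adjusted p = 0.00777). In EBF1ΔC these values were 0.57 (adjusted p = 0.00918) and -0.20 (adjusted p = 0.0721).

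Cox6b1, the widely expressed form of a subunit on the intermembrane side of the enzyme, was higher than Mock in both EBF1 groups. Its log2 signal was 3.45, 3.34 and 3.24 in EBF1ΔC, 3.37, 3.19 and 3.39 in EBF1wt, and 2.92, 2.86 and 2.80 in Mock. The EBF1 groups overlapped each other and not Mock. Cox6b1 rose by 0.49 in EBF1ΔC (SE 0.09, adjusted p = 0.00143) and by 0.46 in EBF1wt (SE 0.09, adjusted p = 0.00182). Both differences passed the adjusted p under all 20 alternatives, at 0.29 to 1.03 in EBF1ΔC and 0.26 to 1.16 in EBF1wt.

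Cox6b2, the testis form, was dim, with intensities of 90.4 to 126 over the 9 arrays, all well above background. The log2 signals were -1.92, -1.96 and -2.05 in EBF1ΔC, -2.32, -2.16 and -2.49 in EBF1wt, and -1.93, -2.18 and -1.88 in Mock. EBF1wt lay under EBF1ΔC on every array and overlapped Mock. EBF1ΔC minus EBF1wt was 0.34, with 0.11 within slide 4 and 0.56 within slide 5. Cox6b2 fell by 0.32 log2 in EBF1wt against Mock (SE 0.11, adjusted p = 0.0311), and EBF1ΔC minus Mock was 0.02 (adjusted p = 0.862). The fall in EBF1wt turned to 0.01 with quantile normalization and to 0.38 with median scaling, and it no longer passed without Mock replicate 1 or 3 or EBF1wt replicate 1 or 3 (-0.32 to -0.24). The EBF1ΔC difference was 0.31 with quantile normalization.

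Cox4i1, the common form of the subunit that binds regulatory nucleotides, did not pass against Mock on that scale. Its log2 signal was 7.32, 7.34 and 7.16 in EBF1ΔC, 7.23, 7.25 and 7.11 in EBF1wt, and 7.18, 7.16 and 7.26 in Mock. The groups overlapped, with 0.07 for EBF1ΔC minus Mock (adjusted p = 0.435) and 0.00 for EBF1wt minus Mock (adjusted p = 0.996). It also passed in opposite directions elsewhere. Quantile normalization gave -0.24 in EBF1ΔC (adjusted p = 0.0269) and -0.30 in EBF1wt (adjusted p = 0.00959), and median scaling gave 0.62 (adjusted p = 0.0116) and 0.70 (adjusted p = 0.00477). The probe of its lung partner Cox4i2 was not well above background on any of the 9 arrays, with intensities of 1.93 to 3.83, so no ratio of this pair was formed.

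Cox8a, the widely expressed form of a small structural subunit, read 6.90, 7.19 and 6.98 in EBF1ΔC, 7.09, 6.99 and 6.99 in EBF1wt, and 7.35, 7.15 and 7.22 in Mock. EBF1ΔC overlapped Mock, and EBF1wt lay just under it. The differences from Mock were -0.22 in EBF1ΔC (adjusted p = 0.0739) and -0.22 in EBF1wt (adjusted p = 0.073). Quantile normalization gave -0.50 (adjusted p = 0.00134) and -0.54 (adjusted p = 0.000928), and median scaling turned the signs to 0.33 (adjusted p = 0.143) and 0.49 (adjusted p = 0.0338).

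Of the 10 members, 9 passed the filter on dim probes. Apart from Cox6a2, 1 of the 8 members tested against Mock was called (adjusted p under 0.05 and at least 2-fold) in EBF1ΔC, Cox7a1, where 18.1% of 12018 genes were called, 6.24% higher and 11.8% lower. The same count held in EBF1wt, again Cox7a1, where 19.4% of all genes were called, 6.58% higher and 12.8% lower. By adjusted p alone, 4 of the 8 passed in each, against 64.2% of all genes in EBF1ΔC (37.4% higher and 26.8% lower) and 66.5% in EBF1wt (39.4% higher and 27.1% lower). In EBF1ΔC the 4 were Cox6a1, Cox7a1, Cox7a2 and Cox6b1, all higher. In EBF1wt they were Cox7a1, Cox7a2 and Cox6b1, higher, and Cox6b2, lower. The median over these 8 was 0.21 log2 in EBF1ΔC and 0.10 in EBF1wt, beside 0.10 and 0.12 over all genes. Both comparisons share the Mock arrays. In EBF1ΔC against EBF1wt, Cox6a2 was the single member called, where 2.72% of all genes were called, 1.39% higher and 1.33% lower, and nothing is read from that count. By adjusted p alone, 9.07% of all genes passed in that comparison, 4.12% higher and 4.95% lower.

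**Figure D2:**
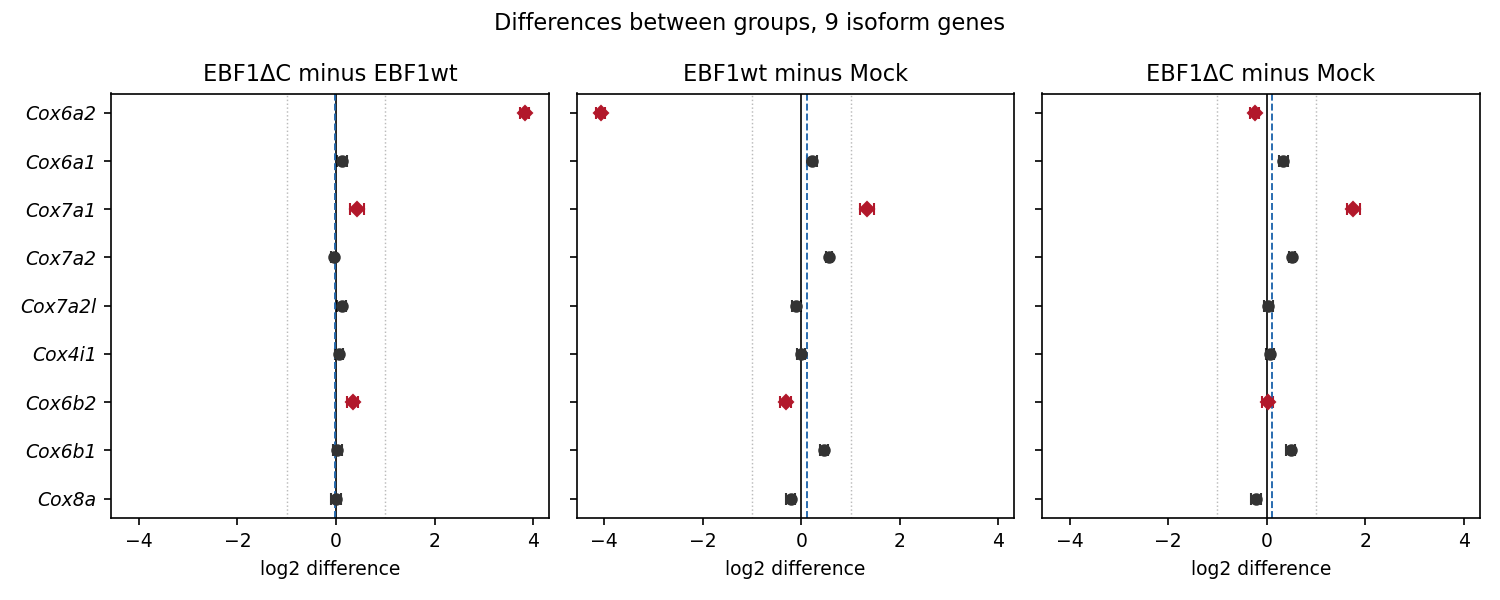
Log2 differences (horizontal axis) with their SE are plotted for the 9 members above the filter in each comparison, with diamonds for tissue-restricted and circles for the other isoforms, dotted lines at 2-fold and a dashed line at the median of all genes. Cox6a2 leaves the 2-fold lines to the right at 3.83 and to the left at -4.07, and Cox7a1 is the other gene beyond them, at 1.34 and 1.76.

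Ratios of 2 probes within an array do not depend on scaling by a constant. They show only whether partners changed unequally, since the absolute ratio of 2 probes has no meaning of its own. For Cox6a2 over Cox6a1, the log2 ratio was -4.84, -4.56 and -4.56 in EBF1ΔC, -8.52, -8.29 and -8.23 in EBF1wt, and -4.00, -4.10 and -4.11 in Mock. EBF1ΔC exceeded EBF1wt by 3.70 and differed from Mock by -0.58. EBF1wt differed from Mock by -4.28. The groups did not overlap, and no test was made because Cox6a2 was chosen for this pattern.

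For Cox7a1 over Cox7a2, the ratio was -5.32, -5.51 and -5.79 in EBF1ΔC, -6.11, -5.82 and -6.12 in EBF1wt, and -6.79, -6.79 and -6.76 in Mock. The difference from Mock was 1.24 log2 in EBF1ΔC and 0.77 in EBF1wt, and neither group overlapped Mock. The exact two-sided permutation test gave p = 0.1 for each, the smallest that 3 against 3 arrays allow. For Cox6b2 over Cox6b1, the ratio was -5.38, -5.30 and -5.29 in EBF1ΔC, -5.69, -5.35 and -5.87 in EBF1wt, and -4.86, -5.04 and -4.68 in Mock. The difference from Mock was -0.46 log2 in EBF1ΔC and -0.78 in EBF1wt without overlap, also at the smallest exact permutation p of 0.1. Over these 4 tests the adjusted p was 0.1. Quantile normalization left -0.01 for Cox6b2 over Cox6b1 in EBF1ΔC (exact permutation p = 1).

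**Figure D3:**
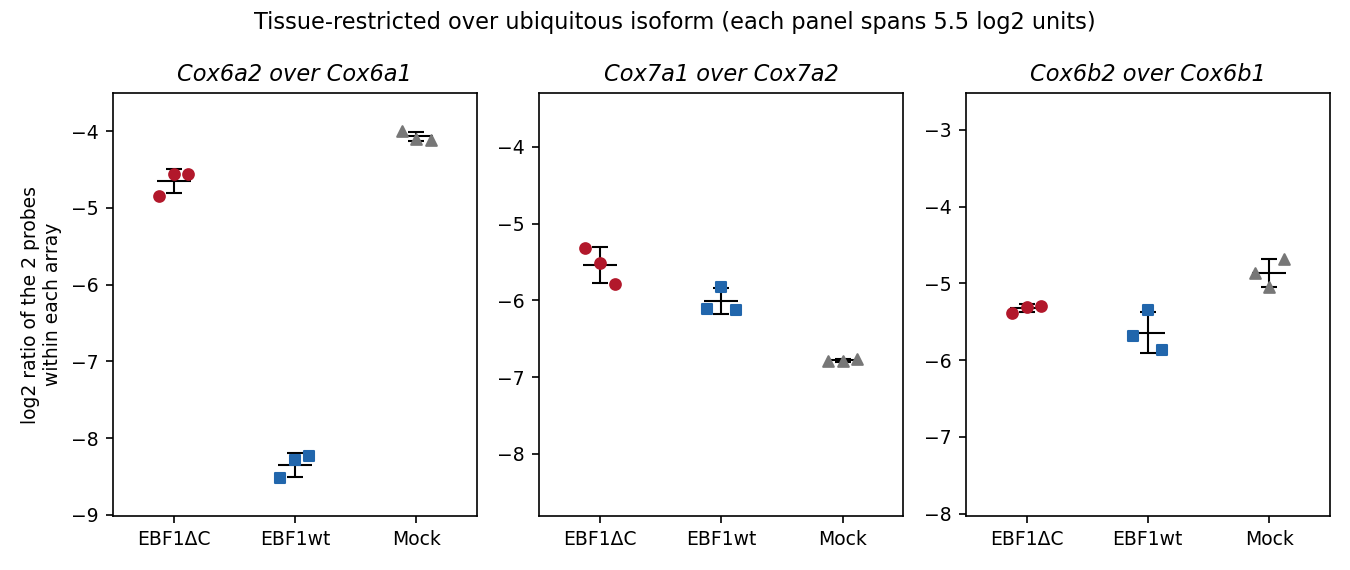
The log2 ratio of the 2 probes of a pair (vertical axis, 5.5 log2 units in each panel) is plotted for every EBF1ΔC, EBF1wt and Mock array, with bars for the mean and SD of 3 arrays. Cox6a2 over Cox6a1 is lowest in EBF1wt (-8.52 to -8.23), Cox7a1 over Cox7a2 is lowest in Mock (-6.79 to -6.76), and Cox6b2 over Cox6b1 is highest in Mock (-5.04 to -4.68).

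The signs of the smaller differences from Mock depended on how arrays were scaled. Scaling to the median moved the median of all genes to 0.65 log2 in EBF1ΔC and 0.82 in EBF1wt against Mock, from 0.10 and 0.12 with the 75th percentile. Relative to the median of all genes, Cox7a1 was 1.66 higher in EBF1ΔC and 1.22 in EBF1wt, Cox7a2 0.41 and 0.45, and Cox6b1 0.38 and 0.34.

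**Figure D4:**
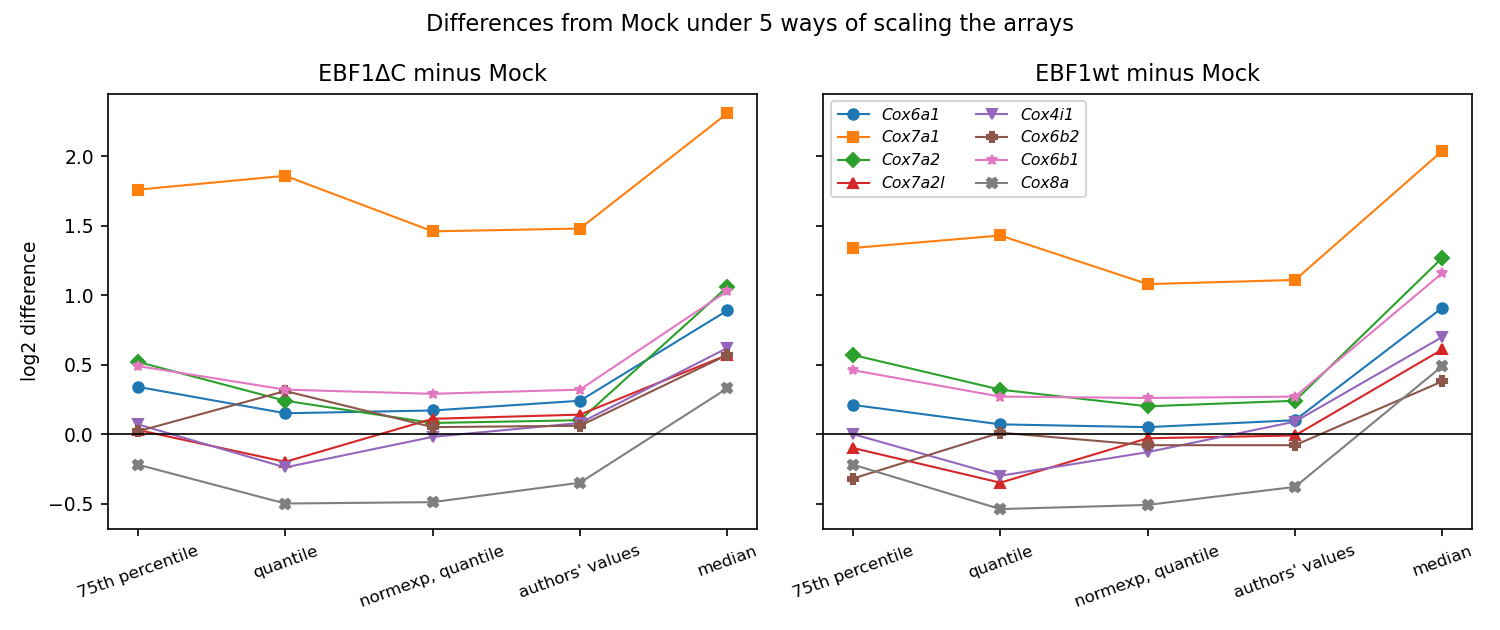
The log2 difference from Mock (vertical axis) of the 8 tested members is plotted for EBF1ΔC and EBF1wt under 5 ways of scaling the arrays (horizontal axis). Cox7a1 lies above the other members throughout (1.46 to 2.31 in EBF1ΔC and 1.08 to 2.04 in EBF1wt), Cox6b1 stays above 0, and every member lies above 0 under median scaling.

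The remaining subunits of complex IV were represented by 6 tested genes of 10 listed. Compared with Mock, 4 of the 6 passed the adjusted p in EBF1ΔC and 2 in EBF1wt, all higher and none called, with list medians of 0.31 and 0.34 log2. Over all genes, 37.4% and 39.4% passed higher and 18.1% and 19.4% were called in either direction, with medians of 0.10 and 0.12. Cox7c, a small structural subunit, rose by 0.78 log2 in EBF1ΔC (adjusted p = 0.00173) and by 0.56 in EBF1wt (adjusted p = 0.00882). Cox7b rose by 0.31 in EBF1ΔC (adjusted p = 0.00342) and by 0.41 in EBF1wt (adjusted p = 8e-04), but quantile normalization left 0.00 and 0.12 in that order, and neither passed. None of the 6 passed in EBF1ΔC against EBF1wt, where 9.07% of all genes did. Cox8b, the muscle partner of Cox8a, and Cox7b2 were not well above background on any array. Cox8c was above it on 2 Mock arrays alone. Cytochrome c (Cycs) and Hccs, which attaches its heme, were tested, and Hccs alone passed, in EBF1ΔC against Mock (0.30, adjusted p = 0.0181), where 37.4% of all genes passed higher. The testis form Cyct was not above background on any array.

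Of 31 assembly and copper delivery factors, 29 were tested. Against Mock, 2 were called in EBF1ΔC and 2 in EBF1wt, all higher, and 13 passed higher in each, with 1 lower in EBF1wt. Over all genes, 6.24% and 6.58% were called higher and 37.4% and 39.4% passed higher, in the same order. The list medians were 0.20 and 0.21, beside 0.10 and 0.12 over all genes. Coa6, a copper-handling factor, read 1.67, 1.54 and 1.69 in EBF1ΔC, 2.28, 2.32 and 2.43 in EBF1wt, and 0.41, 0.38 and 0.31 in Mock. It rose by 1.27 log2 in EBF1ΔC (adjusted p = 4.08e-06) and by 1.98 in EBF1wt (adjusted p = 3.57e-07). The 3 groups did not overlap, and Coa6 fell by 0.71 in EBF1ΔC against EBF1wt (adjusted p = 0.00124), or by 0.70 with slide as a block, where it no longer passed (adjusted p = 0.073). Averaging its 2 probes gave -0.22 there (adjusted p = 0.0828), with 1.02 in EBF1ΔC and 1.24 in EBF1wt against Mock, so the probes differed in size. Cox10, which makes the heme O precursor of heme A, rose by 1.24 in EBF1ΔC (adjusted p = 3.55e-05) and by 1.29 in EBF1wt (adjusted p = 2.68e-05). With the authors' values these were 0.96 and 0.99, short of 2-fold. Cox15, which completes heme A, rose by 0.93 (adjusted p = 0.000562) and 0.92 (adjusted p = 0.000566) in the same order. Lrpprc, which stabilises mitochondrial mRNA, and Cox20, a chaperone of the COX2 subunit, fell in EBF1ΔC against EBF1wt by 0.40 (adjusted p = 0.0305) and 0.36 (adjusted p = 0.0469). Neither passed with slide as a block (adjusted p = 0.182 and 0.323). Nor did either pass with median scaling, no filter, the replicate block or only these groups fitted (adjusted p = 0.0744 to 0.142).

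Among 13 nuclear regulators of respiratory genes, all tested, none was called. Over all genes, 18.1% were called in EBF1ΔC and 19.4% in EBF1wt against Mock, and 2.72% in EBF1ΔC against EBF1wt. In EBF1ΔC against Mock 7 passed higher and 1 lower, and in EBF1wt against Mock 7 passed higher, with medians of 0.35 and 0.38. Over all genes, 37.4% passed higher and 26.8% lower in EBF1ΔC, and 39.4% higher and 27.1% lower in EBF1wt. Gabpa, the DNA-binding subunit of GABP (NRF-2), rose by 0.60 log2 in EBF1ΔC (adjusted p = 0.000444) and by 0.63 in EBF1wt (adjusted p = 0.000316). Its partner Gabpb1 rose by 0.55 (adjusted p = 0.0046) and 0.68 (adjusted p = 0.00147), but averaging its probes gave -0.22 and -0.32. None passed in EBF1ΔC against EBF1wt, where 9.07% of all genes did.

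The MEF2 and E-box list holds factors that drive muscle genes and their inhibitors, and 9 of 13 were tested. In EBF1ΔC against Mock 6 passed higher and 2 lower, in EBF1wt against Mock 4 higher and 3 lower, and in EBF1ΔC against EBF1wt 2 higher. The shares over all genes, in that order, were 37.4% higher and 26.8% lower, 39.4% and 27.1%, and 4.12% and 4.95%. Mef2c, a MEF2 family factor, was the member called, lower, against Mock, reading 1.95, 2.21 and 1.95 in EBF1ΔC, 2.00, 2.06 and 1.96 in EBF1wt, and 4.24, 4.48 and 4.35 in Mock. It fell by 2.32 log2 in EBF1ΔC (adjusted p = 6.61e-07) and by 2.35 in EBF1wt (adjusted p = 5.48e-07). That was 1 of 9 tested in each, where 11.8% and 12.8% of all genes were called lower. Id2, an inhibitor of E-box factors, read 2.09, 2.01 and 1.89 in EBF1ΔC, 1.14, 0.66 and 1.21 in EBF1wt, and 1.55, 1.26 and 1.42 in Mock. It was 0.99 log2 higher in EBF1ΔC than in EBF1wt (adjusted p = 0.00636), just short of 2-fold. Without EBF1wt replicate 1 or 3, or EBF1ΔC replicate 3, it was called at 1.06, 1.09 and 1.05, and with slide as a block it did not pass (1.06, adjusted p = 0.073). Id3 rose against Mock by 0.78 in EBF1ΔC (adjusted p = 0.00171) and 0.93 in EBF1wt (adjusted p = 0.000616).

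Marker lists were read beside these results, as sums of linear signal in units of each array's 75th percentile. All 10 pro-B markers were well above background on every array, and their sum was 888 to 922 in EBF1ΔC, 873 to 942 in EBF1wt and 275 to 288 in Mock. Against Mock, 5 were called higher in EBF1ΔC and 7 in EBF1wt, beside 6.24% and 6.58% of all genes. Those called in both were Igll1 (5.89 and 6.97 log2), Vpreb1 (3.59 and 3.50), Il7r (2.61 and 2.54), Rag1 (4.28 and 2.14) and, by its mRNA probe, Ebf1 (2.35 and 1.61). The other Ebf1 probe went the opposite way (-3.87 and -3.61), and averaging both turned the sign to -0.76 and -1.0. Ebf1 carries the conditional allele and is the gene that the viruses encode. Its place in these counts and sums is therefore not read as a marker of cell state. In EBF1ΔC against EBF1wt, Rag1 was called higher (2.14) and Igll1 lower (-1.08), and neither passed with slide as a block (adjusted p = 0.152 and 0.0661).

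Striated muscle markers summed to 1.60 to 1.72 in EBF1ΔC, 3.20 to 4.32 in EBF1wt and over 10, up to 11.1, in Mock. Tnni2 made up 89.8% of the mean sum in Mock and 61.6% in EBF1wt, and Mylpf was the largest part in EBF1ΔC, at 36.7%. Of 20 markers, 7 were well above background on all arrays of EBF1ΔC, 8 of EBF1wt and 7 of Mock. Ckmt2, Mb, Des, Acta1, Myh4, Myl1, Myl2 and Casq1 were above it on no array. Tnni2, a fast-muscle troponin, read -2.12, -1.88 and -2.30 in EBF1ΔC, 1.37, 1.12 and 0.98 in EBF1wt, and 3.33, 3.25 and 3.22 in Mock. Tnni2 was lower in EBF1ΔC than in EBF1wt by 3.26 log2 (a difference of -3.26, adjusted p = 9.19e-06), and it passed under every alternative run. Tnnt3, another troponin, was above background on all EBF1wt and Mock arrays and no EBF1ΔC array. It entered the fit only through the groups where it was high, so its EBF1ΔC values are a description. Tnnt3 was at least 2.42-fold lower in EBF1ΔC than in EBF1wt and at least 5.36-fold lower than in Mock. EBF1wt minus Mock was -1.15 log2 for Tnnt3 (adjusted p = 0.0171). That was -0.56 with quantile normalization (adjusted p = 0.188), -0.44 with median scaling (adjusted p = 0.231) and -0.45 with the authors' values (adjusted p = 0.0491). The Tnnt3 difference between EBF1ΔC and EBF1wt was -0.16 with the authors' values and -1.56 with slide as a block. Mylpf, a myosin light chain, rose by 1.05 in EBF1ΔC against Mock (adjusted p = 4.31e-05). Of the 8 muscle markers tested, 3 passed higher and 2 lower against Mock in EBF1ΔC, and the same counts held in EBF1wt. The lower ones were Tnni2 and Tnnt3, and nothing is read from Tnnt3 in the counts for EBF1ΔC. Over all genes, 37.4% passed higher and 26.8% lower in EBF1ΔC, and 39.4% and 27.1% in EBF1wt. In EBF1ΔC against EBF1wt 2 muscle markers passed higher and 2 lower, again Tnni2 and Tnnt3, beside 4.12% and 4.95% of all genes. The higher ones, named after their values were seen, were Tnnc2, a troponin C (0.61, adjusted p = 0.0191), and Mylpf (0.43, adjusted p = 0.0323). Neither passed with slide as a block (adjusted p = 0.153 and 0.252) or with the authors' values (adjusted p = 0.306 and 0.138).

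Plasmacytoid dendritic cell markers summed to 64.6 to 66.8 in EBF1ΔC, 63.2 to 69.6 in EBF1wt and 135 to 138 in Mock. Irf8 alone made up 59.7%, 60.3% and 41.9% of the mean sum in EBF1ΔC, EBF1wt and Mock. Of 15 markers, 8 were above background on all arrays of EBF1ΔC, 7 of EBF1wt and 9 of Mock, while Siglech, Klk1, Cd300c and Lair1 were above it on no array. Tcf4 stands on the E-box list too. Tlr7 was at least 77.9-fold lower in EBF1ΔC and at least 68.3-fold lower in EBF1wt than in Mock, the one group in which it was above background. Pacsin1 was above background on all 3 Mock arrays, 2 EBF1ΔC arrays and 1 EBF1wt array. Tlr7 and Pacsin1 thus entered the fit only through the group where they were high and are given as a description. Called lower against Mock in EBF1ΔC and EBF1wt were Ly6c2 (-3.72 and -3.79 log2), Pld4 (-1.52 and -2.40) and Bst2 (-1.41 and -1.45). With Tlr7 and Pacsin1 these made 5 of the 10 markers tested, beside 11.8% and 12.8% of all genes called lower. In EBF1ΔC against EBF1wt, the phospholipase family member Pld4, named for that comparison after its values were seen, read 1.77, 1.70 and 1.73 in EBF1ΔC, 1.12, 0.56 and 0.89 in EBF1wt, and 3.20, 3.17 and 3.40 in Mock. Pld4 was thus lowest in EBF1wt, as Cox6a2 was. It was higher in EBF1ΔC than in EBF1wt by 0.88 log2 (adjusted p = 0.00742), or by 1.03 with slide as a block (adjusted p = 0.0524). The list as a whole did not follow Pld4. Of the 10 markers tested, 2 passed higher there, Pld4 and Ccr9, and 8 did not pass, beside 4.12% of all genes higher. The list median was 0.15 log2. Ccr9, a chemokine receptor, was above background on all 3 EBF1ΔC arrays, no EBF1wt array and 1 Mock array. It entered the fit only through the group where it was high and is given as a description.

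Testis germ cell markers, set beside Cox6b2, summed to 0.214 to 0.326 in EBF1ΔC, 0.224 to 0.338 in EBF1wt and 1.15 to 1.45 in Mock. Of 10 markers, 3 were above background on all arrays of EBF1ΔC, 3 of EBF1wt and 5 of Mock, and Odf1, Acrv1, Ldhc, Dazl and Ddx4 were above it on no array. Called lower against Mock in EBF1ΔC and EBF1wt were Pgk2 (-3.82 and -3.78 log2) and Prm1 (-1.63 and -1.25). Tnp2 and Prm2 were above background on all 3 Mock arrays, 1 EBF1ΔC array and no EBF1wt array, so they entered the fit only through the group where they were high and are given as a description. With them, 4 of the 5 markers tested were called lower in each, beside 11.8% and 12.8% of all genes. With the authors' values Prm1 differed from Mock by less than 2-fold (-0.52 and -0.40), and averaging its probes ended the EBF1wt call (-0.98, adjusted p = 0.101). Brown fat markers (7 genes, Cox8b among them) were above background on all arrays of a group only for Adipoq in Mock, through which alone it entered the fit, and Adipoq was at least 1.57-fold lower in EBF1ΔC and at least 1.42-fold lower in EBF1wt. Their sum was 0.0594 to 0.136 in EBF1ΔC, 0.0551 to 0.0704 in EBF1wt and 0.0679 to 0.0892 in Mock. Of 10 lung and pericyte markers, 0 were above background on all arrays of a group. The part of any such cells in the values of the members was not tested.

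Among the 5 genes with the nearest profile to Cox6a2 over the 9 arrays, each centred on its own mean, were S100a4, Il10ra, Chst15 and Cbfa2t3, with root mean square differences of 0.70, 0.81, 0.93 and 0.94 log2. They were chosen for this likeness, so their values are a description, and points of a group share a treatment. S100a4, a calcium-binding protein, read -2.11, -2.0 and -1.16 in EBF1ΔC, -4.18, -4.82 and -3.78 in EBF1wt, and -0.87, -0.27 and -0.25 in Mock. Its EBF1ΔC arrays lay between the other groups, further under Mock than those of Cox6a2 did. Il10ra, the interleukin-10 receptor, read 1.41, 1.53 and 1.28 in EBF1ΔC, -0.77, -1.78 and -0.73 in EBF1wt, and 1.12, 1.18 and 1.31 in Mock. EBF1ΔC minus EBF1wt was 2.5 for Il10ra, 1.84 for Chst15, a sulfotransferase, and 2.46 for Cbfa2t3, a transcriptional corepressor, where EBF1wt replicate 2 was lowest at -4.08.

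**Figure D5:**
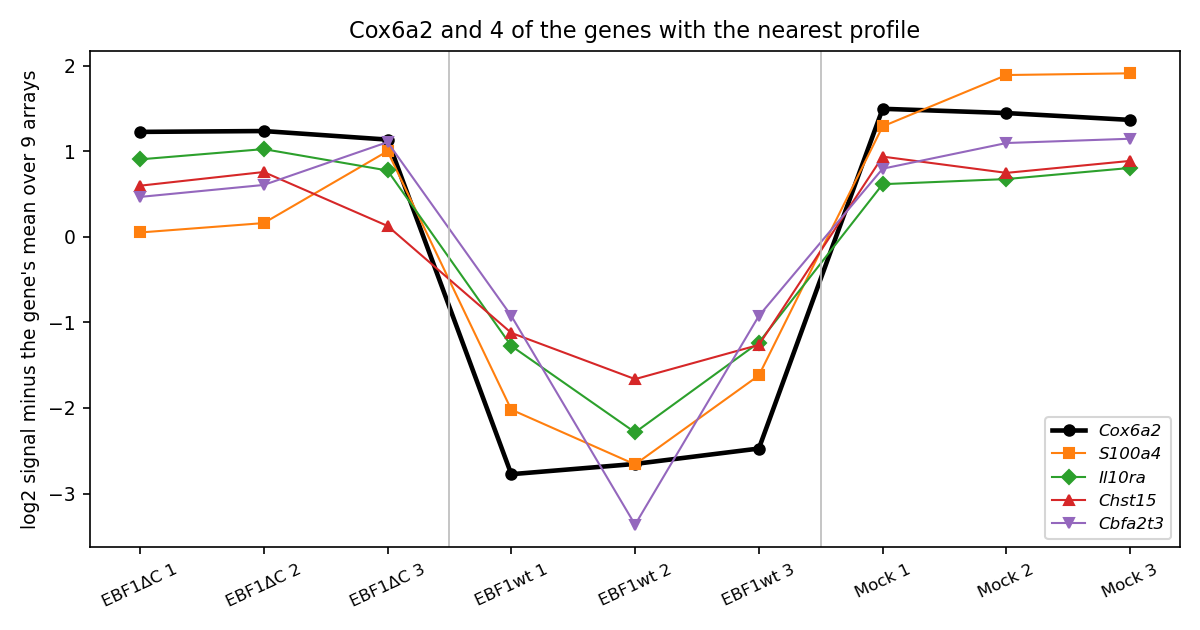
The log2 signal minus the mean of each gene over 9 arrays (vertical axis) is plotted for Cox6a2, in black, and 4 of the 5 genes nearest to it on the 3 EBF1ΔC, 3 EBF1wt and 3 Mock arrays. All the genes drawn are lowest in EBF1wt, and Cbfa2t3 dips on EBF1wt replicate 2, where its signal was -4.08.

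Of 11 genes with a probe within 250 kb of the Cox6a2 probe, 9 passed the filter, among them, in order, Pycard, Itgax, 9130023H24Rik, Armc5, Tgfb1i1, Rusf1, Rgs10 and Tial1. The Itgax probe, for the CD11c integrin, lies at -55.1 kb, where a negative sign means a lower coordinate. It was well above background in Mock alone, reading -0.46, -0.27 and -0.25, and was at least 35.9-fold lower in EBF1ΔC and at least 31.5-fold lower in EBF1wt. Itgax thus entered the fit only through the group where it was high and is given as a description. Tgfb1i1, at 47.9 kb, entered the fit only through Mock and lay under it by -1.99 log2 in EBF1ΔC and -2.87 in EBF1wt. Armc5, at 39.2 kb, was 0.52 log2 higher in EBF1ΔC than in EBF1wt (adjusted p = 0.0182). Its value under the alternative settings was not examined. Whether genes of this window are regulated together was not tested. Rgs10, a regulator of G-protein signalling at 168.1 kb, read -1.89, -1.92 and -0.67 in EBF1ΔC, -3.52, -5.35 and -3.67 in EBF1wt, and -3.71, -3.93 and -4.19 in Mock. It was 2.69 log2 higher in EBF1ΔC than in EBF1wt (adjusted p = 0.0159) and 2.45 higher than in Mock (adjusted p = 0.00294). The Rgs10 call against EBF1wt was lost when only these groups were fitted (adjusted p = 0.0626) and with slide as a block (3.23, adjusted p = 0.134). The 4 genes between Cox6a2 and Rgs10 lay 29.1 to 65.8 kb from it.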

How the data were processed

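The authors deposited Agilent Feature Extraction files, and the intensity used is the processed signal, which per the file headers is background-subtracted and detrended and not normalized between arrays (Feature Extraction 10.5.1.1 in the headers, 9.1 in the submitters' processing notes). For the normexp alternative (offset 50), the deposited spot means and local background medians were used. The authors also deposited log2 values with unstated normalization, whose columns all have a median of 6.74 and correlate with quantile-normalized log2(intensity + 50) at r = 0.996 to 0.997 across probes. Those were an alternative only. The value table held 0 columns of other samples.

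In each array the 75th percentile over the 43379 noncontrol spots (384 to 507.7) was subtracted on the log2 scale. Outlier spots (73 to 163 per array, none of a member) were dropped and spots of a probe averaged. Of 41174 probes, 27479 were named through RefSeq by accession, 5478 by symbol and 679 by synonym, 1227 kept the file's name and 6311 had none. Probes that all 3 arrays of any group measured well above background were kept (22357), and the probe with the highest mean stood for its gene, giving 12018 genes.

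All 9 arrays entered 1 limma 3.58.1 model (in R 4.3.3, with statmod 1.5.0 and the package data.table at version 1.17.8) with a mean per group, 6 residual degrees of freedom, two-sided moderated tests and Benjamini-Hochberg adjustment over 12018 genes. Adjusted p-values in the text are from this model unless another setting is named beside them or they belong to the exact tests. Called means adjusted p under 0.05 and at least 2-fold. Where no array of a group measured the probe above background, a fold is a bound, from its values raised to the lowest signal well above background on each array. Ratios of partners were compared by exact permutation. The limma script was tested on simulated data.

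Members and lists were chosen with earlier results of these data known. The rule for named genes took the 10 members. Of each pathway list it took called genes up to 6, and up to 4 others by size. Of each marker list it took called genes up to 6. It added the 5 nearest profiles to Cox6a2 among genes above background on all 9 arrays, and genes within 250 kb of it. Cyct, Hccs, Cox8b, Cox7b2 and Cox8c, and markers listed by detection, were named to complete a list. Tnnc2, Mylpf and Pld4 were named in EBF1ΔC against EBF1wt after their values were seen.

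Alternatives were quantile normalization with and without normexp, median scaling, the authors' values, no filter, a filter on all 9 arrays, slide or replicate number as a block, the mean of a gene's probes, all probes as features, a fit of the compared groups alone, and dropping each array in turn. A few genes that the rule for named genes took are not reported here.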

Additional observations from a re-analysis of the deposited data

How the results depend on the processing

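With 3 arrays a group, small differences from Mock are limited by scaling more than by the spread, and dim probes (Cox6b2, and Cox4i2 below background) limit their pairs. Of the members tested, Cox7a1 kept its calls under all 20 alternatives. Median scaling called 3 members in EBF1ΔC against Mock and 4 in EBF1wt against Mock, with 1 and 2 in the fit reported, Cox6a2 included. It also turned signs against Mock, in EBF1ΔC for Cox6a2 (0.31), Cox8a (0.33) and Chst15 (0.18), and in EBF1wt for Cox7a2l (0.61), Cox8a (0.49), Cox4i1 (0.70), Cox6b2 (0.38) and Rgs10 (0.47). Quantile normalization turned Cox7a2l (-0.20), Cox4i1 (-0.24) and Cox7b (0.00) in EBF1ΔC and Cox6b2 (0.01) in EBF1wt. Cox7b in EBF1ΔC was -0.08 with normexp and -0.04 with the authors' values. Averaging probes gave -0.22 and -0.32 for Gabpb1, and -0.76 and -1.0 for Ebf1, in EBF1ΔC and EBF1wt. Median scaling raised the median of all genes by the shift given with the results, and the 2 Ebf1 probes differ in sign. The cause of the other turns was not tested. A sign was counted as turned where either value exceeded its SE.

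Counts of all called genes moved by over 1.5 times as follows. In EBF1ΔC against EBF1wt, 327 became 128 with normexp, 125 with the authors' values, 216 above background on all 9 arrays, 134 with slide as a block and 208 with only these groups fitted. In EBF1ΔC against Mock, 2173 became 1041 with normexp, 3915 with median scaling, 1017 with the authors' values, 1420 above background on all 9 arrays and 4971 over probes. In EBF1wt against Mock, 2333 became 1031, 5367, 1013, 1492 and 5236 in the same order of settings. Called genes were higher in 34.5% (EBF1ΔC) and 33.9% (EBF1wt) against Mock, in 78.3% and 85.3% with median scaling and in 45.4% with quantile normalization for EBF1wt. For EBF1ΔC against EBF1wt this share was 51.1%, and 38.7% with median scaling. The cause of the other shifts was not tested.

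Replicate numbers are shared by the groups, but deviations of same-numbered arrays correlated at -0.18 to 0.12 across genes, so the numbers were not taken to pair samples. With the replicate number as a block, 281 genes were called in EBF1ΔC against EBF1wt, 2158 in EBF1ΔC against Mock and 2331 in EBF1wt against Mock, and the members called were 1, 1 and 2.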
